A study of Homo sapiens with 12 samples.

Results

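The genes described here are SESN1, SESN2 and SESN3, which encode the sestrins, together with DDIT4, TSC2 and PRKAB1, all of which encode proteins that hold back the growth kinase complex mTORC1 or act just upstream of it. They were taken by name from the deposited gene counts, where these 6 genes stand among 36486 rows after identifiers with the same symbol were summed. SESN2 was listed under 2 identifiers with identical transcripts, so the 6 genes held 7 of 40295 identifiers, and their counts were added. RNA was sequenced from 12 libraries in 5 groups. In TOV-112D, an ovarian cancer line whose only p53 is the mutant R175H, 2 libraries each came from cells given the solvent DMSO, the pyrimidine trione UCI-1001 or its analog UCI-1014, for 3 h. UCI-1001 was used at 10 µM, while the dose of UCI-1014 for RNA-seq is not given in the sources used here. UCI-1014 carries a methoxy group where UCI-1001 carries a nitro group. In Saos-2, an osteosarcoma line without p53, 3 libraries came from the p53-null cells and 3 from cells with p53-WT, with 16 h of induction in the labels of both groups. The p53-WT cells were a stable line made with a lentivirus whose doxycycline-dependent promoter drives p53, so a comparison with p53-null cells sets one cell line against another. Nothing in the labels says that libraries of a group came from separate cultures, and the p-values then measure only the spread between these libraries.

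mTORC1 is a protein kinase complex on the lysosome that promotes protein synthesis and growth when amino acids and growth factors are present. Sestrins restrain it through the amino acid arm: SESN2 binds leucine, and without leucine it holds back GATOR2, which frees GATOR1 to switch off the Rag GTPases. DDIT4, also called REDD1, acts on the growth factor arm, where the TSC complex with its catalytic subunit TSC2 switches off the GTPase RHEB. PRKAB1 encodes the beta 1 subunit of AMPK, the energy sensor that phosphorylates TSC2 and the mTORC1 subunit RPTOR. SESN1, SESN2, DDIT4, TSC2 and PRKAB1 are known target genes of p53. SESN2 and DDIT4 are also known targets of ATF4, the transcription factor of the integrated stress response, and SESN3 and SESN1 of FOXO factors. On GRCh38 the genes lie at chr6:108984309-109094846 (SESN1, minus strand), chr1:28259518-28282491 (SESN2, plus), chr11:95165513-95232541 (SESN3, minus), chr10:72273919-72276036 (DDIT4, plus), chr16:2047967-2089491 (TSC2, plus) and chr12:119667864-119681624 (PRKAB1, plus).

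SESN1 has several start sites, and the letters before them are shown because the transcripts from these starts behaved differently, beside the start of SESN2, which rose in each comparison. All are the 250 bases before a RefSeq start on GRCh38, written 5′ to 3′ on the strand of the gene. The distal SESN1 window is chr6:109094847-109095096 (minus strand), the internal one chr6:109009553-109009802 (minus strand), the intronic one chr6:109008989-109009238 (minus strand) and the SESN2 window chr1:28259268-28259517 (plus strand). Capitals mark the p53 response element decamer in the intronic window and the letters of an antioxidant response element in the internal window.
SESN1 distal start: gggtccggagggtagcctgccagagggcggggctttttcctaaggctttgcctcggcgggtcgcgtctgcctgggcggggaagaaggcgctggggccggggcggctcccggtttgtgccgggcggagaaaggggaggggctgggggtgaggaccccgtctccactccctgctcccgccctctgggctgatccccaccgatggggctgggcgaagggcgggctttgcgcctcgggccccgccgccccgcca
SESN1 internal start: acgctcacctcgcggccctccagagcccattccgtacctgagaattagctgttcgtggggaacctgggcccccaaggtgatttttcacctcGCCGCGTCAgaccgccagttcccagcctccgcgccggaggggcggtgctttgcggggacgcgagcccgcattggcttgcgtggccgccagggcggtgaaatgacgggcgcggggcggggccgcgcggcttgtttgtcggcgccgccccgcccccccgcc
SESN1 intronic window: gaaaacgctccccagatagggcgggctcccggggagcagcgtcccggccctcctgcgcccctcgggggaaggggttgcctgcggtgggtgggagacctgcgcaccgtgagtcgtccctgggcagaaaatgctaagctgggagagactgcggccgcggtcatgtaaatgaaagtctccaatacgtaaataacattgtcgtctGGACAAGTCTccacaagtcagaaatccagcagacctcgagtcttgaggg
SESN2 start: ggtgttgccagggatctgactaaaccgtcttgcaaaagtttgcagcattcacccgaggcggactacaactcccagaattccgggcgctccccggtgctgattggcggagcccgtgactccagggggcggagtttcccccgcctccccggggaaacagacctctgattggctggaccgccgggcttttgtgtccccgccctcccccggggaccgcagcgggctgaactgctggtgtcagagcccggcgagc
The decamer GGACAAGTCT lay at chr6:109009028-109009037, 518 bases downstream of the first base of transcript SESN1-202 and within its first intron. It was the only match to the decamer consensus among 9 windows of the 6 genes, and 5.57% of 35116 windows of this length held one on either strand. The antioxidant response element, TGACNNNGC on either strand, matched in 2 of the 9 windows, the internal SESN1 window and one of TSC2, and in 10.9% of all windows. The amino acid response element, TGATGNAA on either strand, matched only in the same TSC2 window, and in 3.14% of all windows. None of these letters were in the windows of SESN2, DDIT4, SESN3 or PRKAB1, which says nothing about sites farther away.

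Library totals in the deposited gene counts ran from 17762027 to 24629558. Markers went against the labelled tissues in part. Of 6 osteoblast markers, SP7 was at 0 in all Saos-2 libraries, and 5 of the 6 stayed under 1 CPM (the usual depth-scaled count, here with TMM factors) in each of them. The other, RUNX2, was at 8.48 to 12.1 CPM in p53-null and 4.16 to 6.04 CPM in p53-WT libraries. The 6 summed to 9.52 to 13.7 CPM in TOV-112D, 8.98 to 12.8 CPM in p53-null and 5.05 to 6.56 CPM in p53-WT libraries. The 7 epithelial markers summed to 4.07 to 6.45 CPM in TOV-112D, with KRT18 at 0 in all 6 libraries, and to 722 to 782 CPM in p53-null and 844 to 1090 CPM in p53-WT libraries, mostly KRT8 and KRT18. Not all of them went this way. EPCAM was at 1.80 to 3.09 CPM in TOV-112D and at most 0.0996 CPM in Saos-2. CDH1 was at 0.819 to 1.79 CPM in TOV-112D and 0.0921 to 0.263 CPM in Saos-2. PAX8 and WT1 were higher in Saos-2. The 5 leukocyte and endothelial markers summed to at most 3.56 CPM in any library. These sums did not overlap between p53-null and p53-WT, and their part in the results below was not tested.

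Per length of transcript, in TPM summed over the transcripts of a gene, TSC2 and PRKAB1 were the most abundant of the 6 in DMSO-treated cells, with means of 35.6 and 29.6 TPM. SESN1 at 7.34, SESN2 at 7.08 and DDIT4 at 5.09 TPM followed, and SESN3 was the lowest at 0.921 TPM. SESN1 and SESN2 overlapped there, as they did in p53-null cells. The order changed with each condition other than in SESN3, which was lowest in all 5 groups. With UCI-1014, SESN2 came first at 137 TPM (129 and 146). With p53-WT, PRKAB1 came first at 122 TPM (115 to 127) and SESN1 second at 100.2 TPM (80.8 to 113), and the ranges of SESN2 and TSC2 overlapped at 35.5 and 31.8 TPM.

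**Figure D1:**
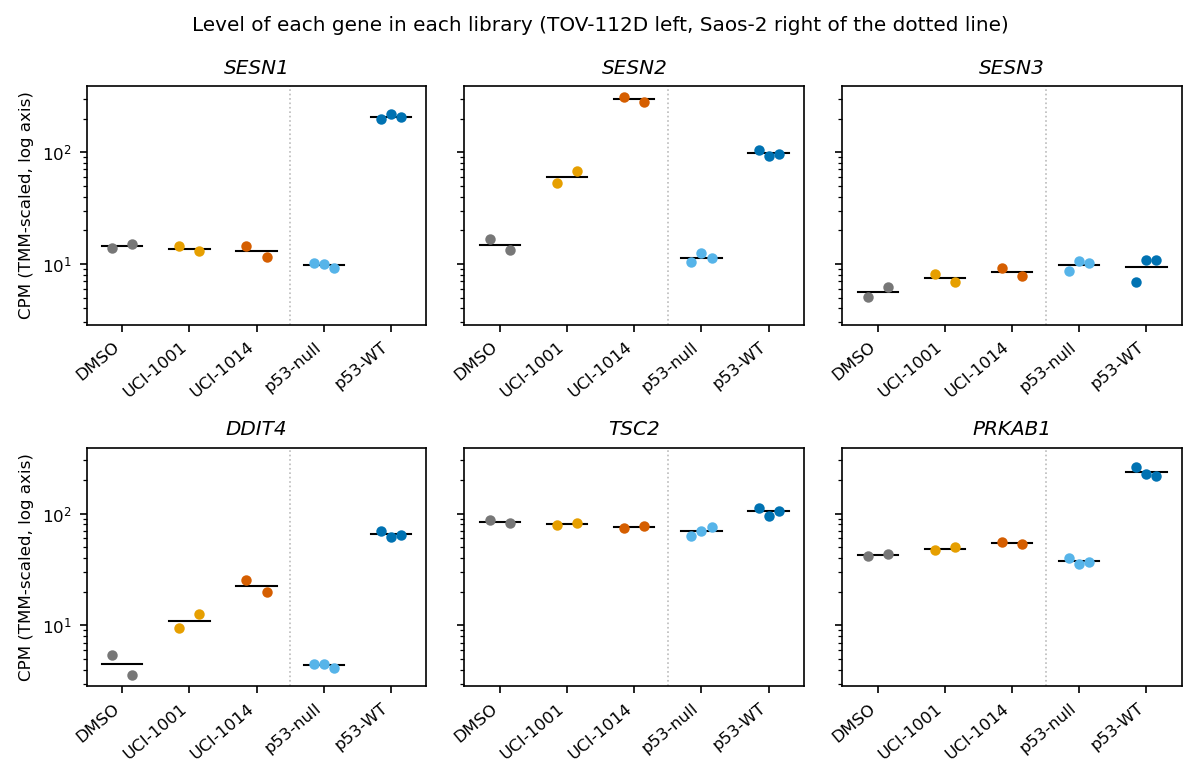
CPM on a log axis in each library for the 6 genes, with a point per library and a bar at the group mean, TOV-112D to the left and Saos-2 to the right of the dotted line. SESN2 and DDIT4 stepped up from DMSO to UCI-1001 to UCI-1014 and were also higher with p53-WT, whereas SESN1 was high in the 3 p53-WT libraries (196 to 218 CPM) and at most 14.9 CPM in the other 9.

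Counts were tested across all genes with edgeR, with adjusted p under 0.05 as the threshold. With UCI-1001, 2 of the 6 genes rose (SESN2 and DDIT4) and the other 4 did not pass, where 9.39% of 14177 genes tested were higher and 6.36% lower. With UCI-1014, 4 rose (SESN2, DDIT4, SESN3 and PRKAB1) and TSC2 fell, where 23.7% of all genes were higher and 23.4% lower. Against UCI-1001, UCI-1014 gave higher SESN2, DDIT4 and PRKAB1, where 17.1% of genes were higher and 13.9% lower. With p53-WT, 5 rose (SESN1, SESN2, DDIT4, PRKAB1 and TSC2), where 33.5% of 14275 genes were higher and 33% lower. The median log2 fold change over the 6 genes was 0.30 for UCI-1001, 0.47 for UCI-1014 and 2.88 for p53-WT, while the median over all genes tested was within 0.0158 of 0 in each. The UCI-1001 and UCI-1014 values share their DMSO controls.

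**Figure D2:**
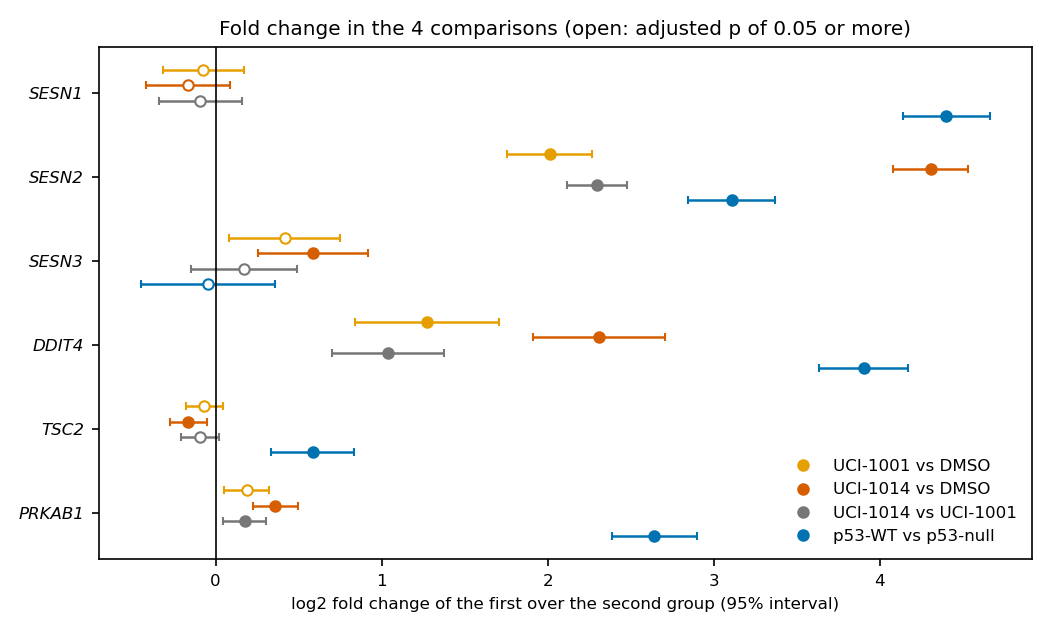
Log2 fold change (x axis) with its 95% interval for each gene (y axis) in the 4 comparisons, filled where the adjusted p was under 0.05 and open otherwise. The p53-WT points of SESN1, DDIT4 and PRKAB1 lay right of those of both compounds, while the SESN2 point of UCI-1014 (4.31) lay right of that of p53-WT (3.11).

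SESN2, a leucine-binding sestrin, responded to all 3 conditions. Its level was 16.6 and 13.2 CPM with DMSO, 53.4 and 67.2 CPM with UCI-1001 and 313 and 280 CPM with UCI-1014. The 3 groups did not overlap. UCI-1001 raised it 4.03-fold (log2 fold change 2.01 ± 0.12 SE, adjusted p = 4.7e-08) and UCI-1014 19.8-fold (4.31 ± 0.11, adjusted p = 3.4e-13). The direct difference between the compounds was 4.91-fold (2.30 ± 0.09, adjusted p = 1.6e-10), with the limit that the dose of UCI-1014 is not known here to match that of UCI-1001. In Saos-2 cells SESN2 stood at 10.4, 12.5 and 11.2 CPM in p53-null and at 105, 93.1 and 96.8 CPM in p53-WT libraries. The lowest p53-WT library was well above the highest p53-null library, and the difference was 8.62-fold (3.11 ± 0.12, adjusted p = 3.6e-09).

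DDIT4, the inducible activator of the TSC complex, followed the same order at a lower level. It was read at 5.46 and 3.57 CPM with DMSO, from 106 and 66 counts, at 9.46 and 12.5 CPM with UCI-1001 and at 25.6 and 19.7 CPM with UCI-1014. No library of one group reached the range of another, though the DMSO libraries differed from each other by a larger ratio than those of SESN2. The rise was 2.42-fold with UCI-1001 (1.27 ± 0.20, adjusted p = 6.0e-04) and 4.97-fold with UCI-1014 (2.31 ± 0.19, adjusted p = 1.3e-07). UCI-1014 lay 2.05-fold above UCI-1001 (1.04 ± 0.16, adjusted p = 1.8e-04). With p53-WT, DDIT4 stood at 70.1, 62.2 and 64.6 CPM, where p53-null libraries held 4.51, 4.50 and 4.12 CPM. This was 14.98-fold higher (3.91 ± 0.12, adjusted p = 1.3e-09). Nearly all of it was assigned to transcript DDIT4-201, which held at least 87.5% of the DDIT4 TPM in each group mean.

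SESN1, the first sestrin described as a p53 target, rose with p53-WT and did not pass the test with either compound. In TOV-112D it was 13.9 and 14.9 CPM with DMSO, 14.4 and 13.0 CPM with UCI-1001 and 14.4 and 11.5 CPM with UCI-1014, and the 3 groups overlapped. UCI-1001 gave a log2 fold change of -0.07 (95% interval -0.32 to 0.17) and UCI-1014 one of -0.17 (-0.42 to 0.09). In Saos-2 cells it went from 10.2, 10.05 and 9.12 CPM in p53-null to 196, 218 and 208 CPM in p53-WT libraries. The difference, 21.1-fold (4.40 ± 0.12, adjusted p = 6.2e-10), was the largest of the 6 genes in that comparison.

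The SESN1 signal in p53-WT cells came from one transcript. SESN1-202, which begins at the internal start (chr6:109009555), was estimated at 74.8, 106 and 98.6 TPM in the p53-WT libraries and at 1.64, 1.78 and 1.04 TPM in the p53-null libraries. In TOV-112D it was 0.611 and 1.23 TPM with DMSO, 1.75 and 2.20 TPM with UCI-1001 and 0.754 and 0 TPM with UCI-1014. These TOV-112D values rest on at most 70.2 estimated counts per library. SESN1-204, which begins 85291 bases upstream at the distal start (chr6:109094846), showed no such step with p53-WT. It was 2.56, 3.12 and 3.05 TPM in p53-null, 2.76, 3.17 and 3.72 TPM in p53-WT, and 4.38 to 6.04 TPM in TOV-112D. SESN1-202 therefore made up 92.9% ± 1.02 (SD, n = 3) of the SESN1 TPM in p53-WT and 31.7% ± 6.62 (SD, n = 3) in p53-null libraries. SESN1-201, which begins at the start after the intronic window, reached 0.549 to 2.11 TPM in p53-WT libraries and was at or near 0 in the p53-null libraries. The decamer in the sequence above lies between the starts of SESN1-202 and SESN1-201. No transcript was tested, and the reads shared between these transcripts were divided by the authors' estimation.

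**Figure D3:**
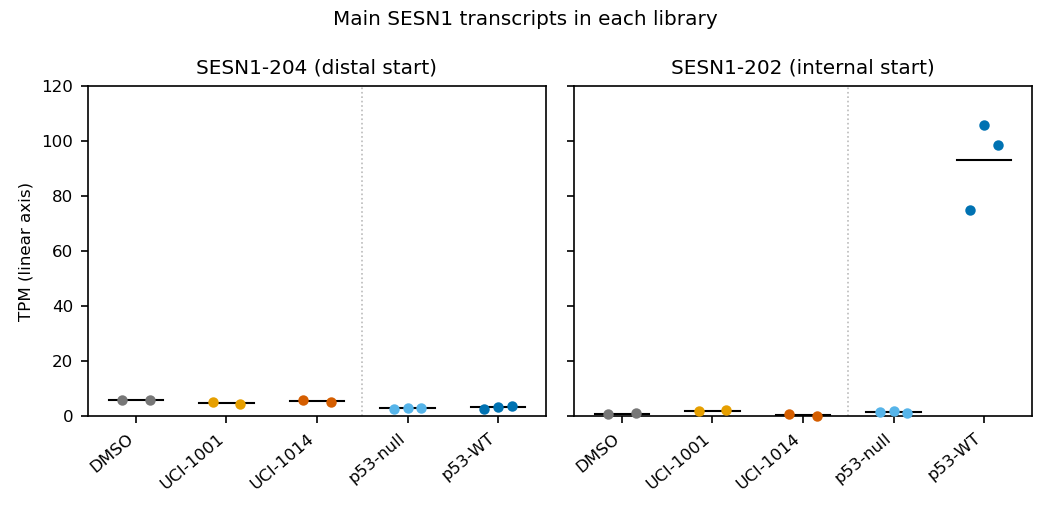
TPM on a linear axis of transcripts SESN1-204 (left) and SESN1-202 (right) in each library, with a bar at the group mean. SESN1-204 stayed between 2.56 and 6.04 TPM in all 12 libraries, and SESN1-202 reached 74.8 to 106 TPM in the p53-WT libraries alone.

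SESN3, best known as a FOXO target, was the least abundant of the 6 in TPM and had 99 and 114 counts in the DMSO libraries. It stood at 5.10 and 6.17 CPM with DMSO, 8.07 and 6.94 CPM with UCI-1001 and 9.14 and 7.83 CPM with UCI-1014. Each treated library was above both DMSO libraries, and the compounds overlapped each other. UCI-1001 gave 0.42 ± 0.16 on the log2 scale (adjusted p = 0.09) and UCI-1014 0.59 ± 0.16 (adjusted p = 0.0063). The UCI-1014 call was lost without DMSO library 1 (0.46, adjusted p = 0.0741) and with DESeq2 (adjusted p = 0.0515). In Saos-2 cells SESN3 was 8.57, 10.5 and 10.2 CPM in p53-null and 6.82, 10.8 and 10.8 CPM in p53-WT libraries, which overlapped. The interval of that difference ran from -0.45 to 0.36 on the log2 scale, so that of the 3 sestrins SESN3 alone did not pass the test with p53-WT.

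PRKAB1, the AMPK beta 1 subunit, moved little with the compounds and strongly with p53-WT. Its level was 41.7 and 43.5 CPM with DMSO, 47.1 and 49.8 CPM with UCI-1001 and 56.2 and 53.2 CPM with UCI-1014, without overlap. Log2 fold changes were 0.19 ± 0.06 for UCI-1001 (adjusted p = 0.0597) and 0.36 ± 0.06 for UCI-1014 (adjusted p = 2.6e-04). The UCI-1001 value passed the threshold without UCI-1014 library 1 (adjusted p = 0.0498). The direct difference of the compounds was 0.17 ± 0.06 (adjusted p = 0.0445), and this call was lost with DESeq2 (adjusted p = 0.196). It was also lost without any one of DMSO library 1 (log2 fold change 0.19), DMSO library 2 (0.17), UCI-1001 library 1 (0.14) or UCI-1014 library 1 (0.15). With p53-WT it went from 40.3, 35.3 and 37.2 CPM to 261, 225 and 218 CPM. That was 6.24-fold higher (2.64 ± 0.12, adjusted p = 8.8e-09), far outside the spread of either group. Transcript PRKAB1-201 held at least 73.9% of the PRKAB1 TPM in each group mean.

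TSC2, which encodes the catalytic subunit that switches off RHEB, changed least among the genes that passed a test. It stood at 88.0 and 82.0 CPM with DMSO, 79.6 and 82.5 CPM with UCI-1001 and 74.9 and 76.8 CPM with UCI-1014. Only the DMSO and UCI-1001 groups overlapped. The log2 fold change with UCI-1014 was -0.16 ± 0.05 (adjusted p = 0.0188), and this call was lost without DMSO library 1 (-0.10, adjusted p = 0.278) or UCI-1014 library 1 (-0.13, adjusted p = 0.108) and with DESeq2 (adjusted p = 0.112). In Saos-2 cells TSC2 was 63.4, 69.3 and 76.5 CPM in p53-null and 112, 95.7 and 106 CPM in p53-WT libraries, a difference of 0.59 ± 0.11 (adjusted p = 8.2e-04). In TPM, which divides by transcript length and has no TMM scaling, the means were 27.7 and 31.8, a log2 ratio of 0.20. The libraries still did not overlap, and what made this ratio smaller was not tested. The estimates divided TSC2 among 68 transcripts. TSC2-204 held at least 28.7% of its TPM in each group mean, and TSC2-231 stood at 7.68 to 9.39 TPM in TOV-112D and at 0.107 to 3.47 TPM in Saos-2 libraries.

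Genes for transcription factors known to act on these 6 were read alongside, from a list of 11 of which 10 were tested (TP63 was not). The genes of the stress response factors DDIT3, CEBPB and ATF4 rose with both compounds. DDIT3, which encodes CHOP, went from a mean of 10.05 CPM with DMSO to 107 CPM with UCI-1001 (log2 fold change 3.42 ± 0.15, adjusted p = 2.2e-09) and 275 CPM with UCI-1014 (4.78 ± 0.14, adjusted p = 2.8e-12). CEBPB went from 19.0 to 59.5 and 146 CPM, with log2 fold changes of 1.65 ± 0.08 and 2.94 ± 0.07. ATF4, much of whose regulation is known to be translational, went from 155 to 211 and 347 CPM (0.44 ± 0.04 and 1.17 ± 0.04). FOXO3 (0.41 and 1.02) and NFE2L2 (0.34 and 1.04), the gene of the antioxidant factor NRF2, also rose with both. TP73, the gene of a p53 relative, fell with both (-0.30 and -0.62). Its UCI-1001 call was lost with DESeq2 (adjusted p = 0.201) and without any one of the 4 libraries compared (log2 fold changes of -0.33 to -0.28). HIF1A (0.14) and FOXO1 (0.32) rose with UCI-1014. HIF1A did not pass without DMSO library 1 (log2 fold change 0.13) or UCI-1014 library 1 (0.11). FOXO1 did not pass with DESeq2 (adjusted p = 0.224). Nor did it pass without DMSO library 1 (log2 fold change 0.32), DMSO library 2 (0.33) or UCI-1014 library 1 (0.19). HSF1 did not pass with either compound (-0.07 and -0.08). UCI-1014 gave more DDIT3 (1.36 ± 0.10, adjusted p = 2.0e-07), CEBPB (1.30 ± 0.06, adjusted p = 2.1e-09) and ATF4 (0.72 ± 0.04, adjusted p = 2.9e-09) than UCI-1001.

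With p53-WT the same list moved otherwise. ATF4 fell by 0.46 on the log2 scale (adjusted p = 0.00369) while DDIT3 rose by 0.78 (adjusted p = 5.2e-04) and CEBPB by 1.54 (adjusted p = 1.7e-06). FOXO3 fell by 0.62 and TP73 fell by 1.66, whereas HIF1A (0.74), HSF1 (0.66) and FOXO1 (0.45) rose. The FOXO1 call was lost with DESeq2 (adjusted p = 0.0915) and without p53-null library 1 or 2 or p53-WT library 2 or 3 (adjusted p of 0.0525 to 0.0942). NFE2L2 was -0.24 (adjusted p = 0.0559). SESN2 and DDIT4 thus stood higher beside more ATF4 RNA with the compounds and beside less ATF4 RNA with p53-WT. Whether any of these factors acted on the 6 genes was not tested.

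**Figure D4:**
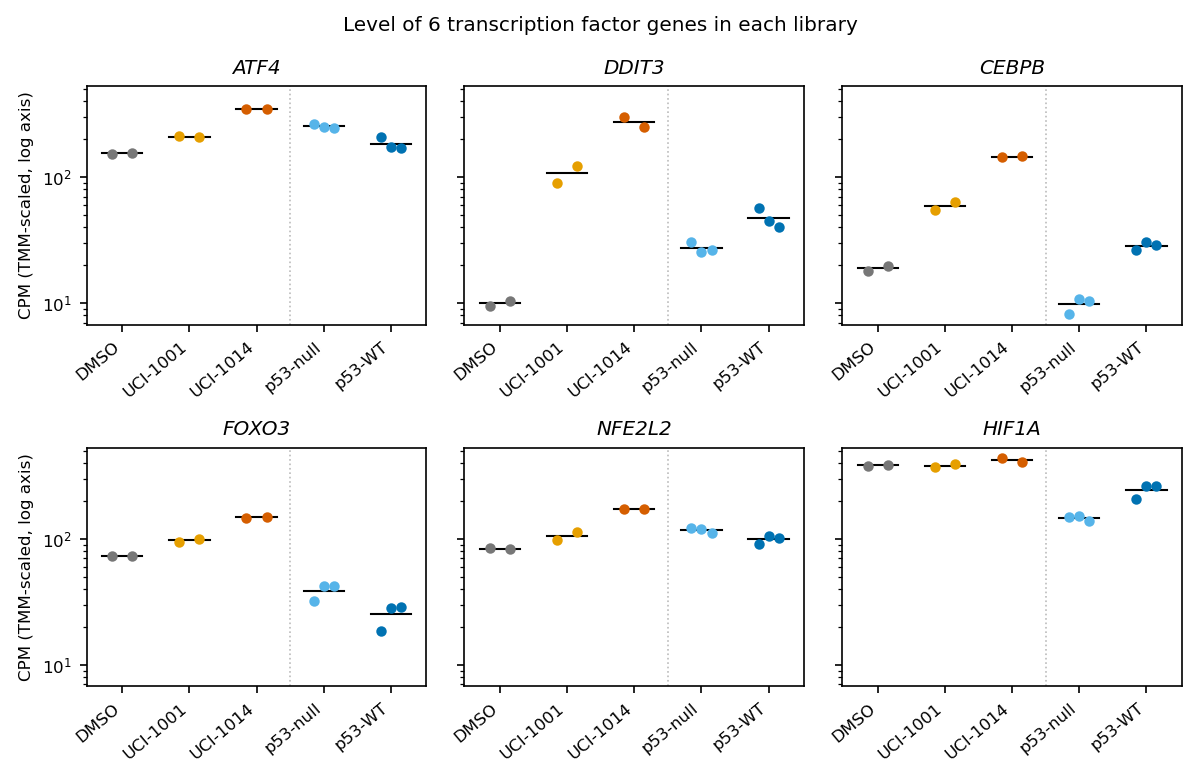
CPM on a log axis in each library for 6 of the transcription factor genes, with a bar at the group mean. DDIT3 and CEBPB stepped up from DMSO to UCI-1001 to UCI-1014, and ATF4 was higher with both compounds and lower with p53-WT.

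The rest of the mTORC1 pathway was followed in 8 lists that held 71 genes. With UCI-1001, 13 of 68 genes tested rose (19.1%) and 4 fell (5.88%), with a median log2 fold change of -0.0025 beside 0.0016 over all genes. With UCI-1014, 22 rose and 22 fell (32.4% each), with a median of -0.0029 beside -0.0158. Of the 13 genes for Rag GTPases, the Ragulator scaffold and folliculin with its partners, which bring mTORC1 to the lysosome, 7 rose after UCI-1001 treatment and 8 after UCI-1014 treatment, with list medians of 0.29 and 0.61, where 9.39% and 23.7% of all genes were higher. RRAGC, a Rag GTPase, went from 35.3 to 71.5 CPM with UCI-1001 (1.02 ± 0.07, adjusted p = 2.1e-07). FNIP1, a folliculin partner, went from 47.2 to 177 CPM with UCI-1014 (1.90 ± 0.06, adjusted p = 5.0e-12). The Ragulator subunits LAMTOR5, LAMTOR2 and LAMTOR4 fell by 0.72, 0.46 and 0.30 on the log2 scale with UCI-1014 (adjusted p = 3.0e-06, 0.00119 and 0.0114). The share of the list that fell with UCI-1014, 23.1%, was near the 23.4% of all genes. With UCI-1001 it was 7.69%, beside 6.36% of all genes. The LAMTOR4 call was lost with DESeq2 (adjusted p = 0.0738) and without DMSO library 1 (log2 fold change -0.24) or UCI-1014 library 2 (-0.23). In the list of the TSC complex and RHEB, 3 of 4 genes rose with UCI-1014, where 23.7% of all genes were higher. RHEBL1 rose by 0.48, RHEB by 0.42 and TSC1 by 0.29 (adjusted p = 0.00727, 6.1e-06 and 0.00161). The RHEBL1 call was lost with DESeq2 (adjusted p = 0.0813) and without DMSO library 2 (log2 fold change 0.41) or UCI-1014 library 2 (0.40).

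Of the 15 genes for amino acid sensors and the GATOR complexes through which sestrins act, 2 rose and 1 fell under UCI-1001, and 3 rose and 3 fell under UCI-1014, shares near those of all genes (9.39% and 6.36%, then 23.7% and 23.4%). BMT2, which encodes the S-adenosylmethionine sensor SAMTOR, had the largest rise of the 68 genes with either compound, going from 10.6 CPM with DMSO to 25.9 CPM with UCI-1001 (1.29 ± 0.09, adjusted p = 3.5e-07) and 48.5 CPM with UCI-1014 (2.19 ± 0.09, adjusted p = 6.4e-11). In the growth factor arm IRS2, an insulin receptor adaptor, rose from 21.2 to 40.5 CPM (0.94 ± 0.08) and 86.8 CPM (2.03 ± 0.08). Among AMPK genes other than PRKAB1 and their upstream kinases, 1 rose and 2 fell with each compound. Those were 11.1% and 22.2% of 9 genes tested, beside 9.39% and 6.36% of all genes with UCI-1001 and 23.7% and 23.4% with UCI-1014. STK11, which encodes the upstream kinase LKB1, fell by 0.27 and 0.59 on the log2 scale under UCI-1001 and UCI-1014, and CAMKK2 fell by 0.26 (adjusted p = 0.00119) and 0.63 (adjusted p = 6.9e-08). PRKAA2, a catalytic subunit, rose under UCI-1001 (0.38, adjusted p = 0.0207) and PRKAG2, a gamma subunit, under UCI-1014 (0.53, adjusted p = 4.6e-04). The PRKAA2 call was lost with DESeq2 (adjusted p = 0.237) and without any one of the 4 libraries compared (log2 fold changes of 0.37 to 0.38). The 3 largest falls with UCI-1001 were small, and each lost its call without some single libraries. LAMTOR2 (-0.30) was lost without DMSO library 1, UCI-1001 library 1 or UCI-1001 library 2 (log2 fold changes of -0.17, -0.25 and -0.35). DEPDC5 of GATOR1 (-0.29) was lost without DMSO library 1, DMSO library 2 or UCI-1001 library 2 (-0.35, -0.23 and -0.23). STK11 was lost without the same 3 libraries (-0.31, -0.23 and -0.23). With DESeq2 the LAMTOR2 and DEPDC5 calls were lost too (adjusted p = 0.295 and 0.289). Of the 8 genes of mTORC1 outputs, such as the S6 kinases and the 4E-BP proteins, 1 rose and 4 fell with UCI-1014 (12.5% and 50%, beside 23.7% and 23.4% of all genes). Between the compounds, 16 genes of the lists were higher and 11 lower with UCI-1014. That was 23.5% and 16.2% of 68, beside 17.1% and 13.9% of all genes. The largest differences were FNIP1 (1.14 ± 0.06), IRS2 (1.10 ± 0.07) and BMT2 (0.91 ± 0.08) above and LAMTOR5 (-0.51 ± 0.08), IRS1 (-0.38 ± 0.04) and CAMKK2 (-0.36 ± 0.05) below.

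With p53-WT, 26 of 65 pathway genes tested rose (40%) and 19 fell (29.2%), beside 33.5% and 33% of all genes, with a median of 0.08 beside -0.01. Of the 13 genes for Rag GTPases, Ragulator and folliculin, 7 rose and 1 fell (53.8% and 7.69%), with a list median of 0.31. PIK3R1, the regulatory subunit of PI3-kinase, rose from 22.1 to 93.2 CPM (2.07 ± 0.17, adjusted p = 1.0e-06), ULK1, the autophagy kinase that mTORC1 inhibits, from 30.1 to 107 CPM (1.83 ± 0.12, adjusted p = 1.7e-07) and LAMTOR2 from 30.4 to 106 CPM (1.80 ± 0.16, adjusted p = 2.0e-06). RHEBL1, a relative of the TSC2 target RHEB, fell from 4.205 to 1.10 CPM (-1.92 ± 0.23, adjusted p = 2.1e-05), and RHEB and TBC1D7 of the same list of 4 genes fell with it. The TBC1D7 call (-0.34) was lost with DESeq2 (adjusted p = 0.0772) and without p53-null library 1, 2 or 3 or p53-WT library 2 or 3 (adjusted p of 0.0599 to 0.175). PRKAA2 fell from 12.7 to 3.77 CPM (-1.75 ± 0.20), and IRS1 from 11.98 to 4.10 CPM (-1.55 ± 0.17). Of the other AMPK genes and their upstream kinases, 3 of 9 were higher and 3 lower (33.3% each), which is near the shares of all genes. DDIT4L, a relative of DDIT4, had at most 2 counts in any library and was not tested. TXNIP, whose protein binds that of DDIT4, was listed at 0 or 1 counts, which may be a failed estimate and is not read as its level.

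**Figure D5:**
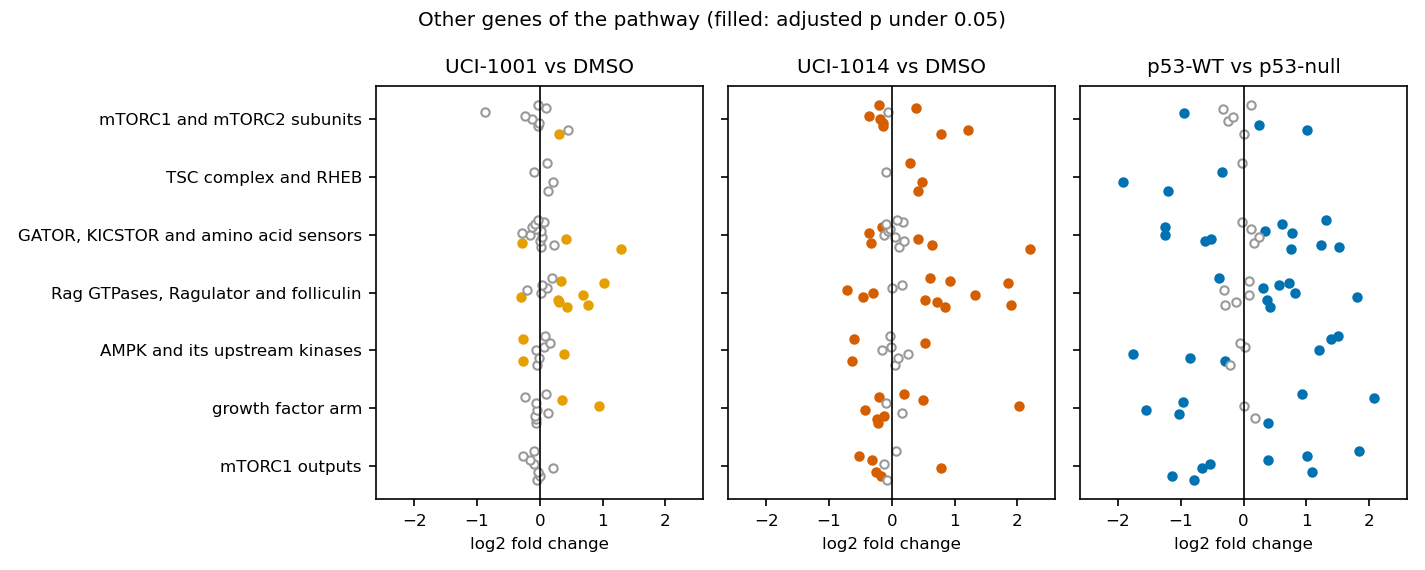
Log2 fold change (x axis) of each tested gene in 7 pathway lists (rows) with UCI-1001, UCI-1014 and p53-WT, filled where the adjusted p was under 0.05. The list of Rag GTPases, Ragulator and folliculin had 13 points. With UCI-1001, UCI-1014 and p53-WT, 7, 8 and 7 were filled to the right and 1, 3 and 1 to the left. The list of the TSC complex and RHEB had 3 of 4 filled to the right with UCI-1014 and 3 to the left with p53-WT. Of all genes, 9.39%, 23.7% and 33.5% were higher and 6.36%, 23.4% and 33% lower in these comparisons.

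The genes whose pattern over the 12 libraries was nearest to each of the 6 were found from the root mean square difference in log2(CPM + 1), centred on the mean of each cell line, among 11577 genes. Among the nearest to SESN1 were JUP (0.12) and SCN2A (0.13), of which SCN2A went from a mean of 2.52 CPM in p53-null to 62.6 CPM in p53-WT. SESN2 had no gene closer than NR4A3 (0.29), CHAC1 (0.40) and PGF (0.51). DDIT4 had NR4A1 (0.17), HIST1H2BG (0.23) and again PGF (0.25), which was 0.976 CPM with DMSO, 5.52 with UCI-1001, 11.7 with UCI-1014, 2.95 in p53-null and 38.7 in p53-WT. PRKAB1 was nearest to PLK2 (0.09), PRSS23 (0.10) and MLF2 (0.11). For SESN3 (PHC3, ICK and PPP2R5E, 0.09 to 0.10) and TSC2 (SCARB1, RHOG and SIN3B, all 0.04) the values were small, and the spread of these genes over the 12 libraries was itself 0.24 and 0.23 (SD).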

How the data were processed

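RNA-seq libraries of TOV-112D and Saos-2 cells were analysed from the deposited files. The authors quantified reads against GRCh38 with kallisto 0.48.0 and deposited estimated counts and TPM per transcript, and gene counts as whole numbers without normalization. DESeq2 1.38.3 is also named in the submitters' processing notes. The annotation release of their index is not given in the sources used here. Positions are from GENCODE release 44 on GRCh38, which held 88.4% of the transcripts, and promoter sequences are from RefSeq on GRCh38. Gene counts were summed by symbol. Gene counts and transcript estimates agree to at least 99.96% of each library total, so the identical SESN2 copies were added. Counts were tested with edgeR 4.0.16 in R 4.3.3 (TMM, filterByExpr, glmQLFit, glmQLFTest, Benjamini-Hochberg over all genes), with 1 fit per cell line, after testing on simulated data. The standard error is the log2 fold change over the root of the F statistic. Levels are TPM summed per gene. DESeq2 1.42.0, other scaling, filters, length offsets, a replicate block and left-out libraries were alternatives. Counting error is smallest at high counts, and p-values of genes near 100 counts are less certain. The 6 genes, the lists and the tests were chosen with earlier results of these data known. Named in the text are the 6 genes, the tested transcription factor genes, per comparison the 3 largest rises and falls of pathway genes (adjusted p under 0.05, mean of at least 1 CPM, no overlap), transcripts from 20% of the TPM of a gene, and up to 3 nearest genes each. Another gene that this rule names is not reported here. SESN1-201, the marker genes, TSC1, RHEB, TBC1D7, LAMTOR4, PRKAG2, DDIT4L, TXNIP and TP63 were added after their values were seen.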

Additional observations from a re-analysis of the deposited data

How the results depend on the processing

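Of the 6 genes, SESN2 and DDIT4 with both compounds and between them, and SESN1, SESN2, DDIT4, PRKAB1 and TSC2 with p53-WT, kept direction and call under every alternative that could test them. TSC2 was not in the fit with a length offset, since its transcript sums do not match its gene count within 1 count. The calls on SESN3, TSC2 and PRKAB1 with UCI-1014 did not all hold. The number of the 6 called with UCI-1014 went from 5 to 3 with DESeq2 and 2 with all 12 libraries in one fit. With a length offset 3 of the 5 genes that could be tested were called, SESN3 losing its call (adjusted p = 0.0558). Some of these calls were also lost with 1 library left out. Pathway genes called went from 17 to 9 with a length offset and 5 with all 12 libraries in one fit for UCI-1001, from 44 to 26 and 22 for UCI-1014, and from 27 to 16 and 11 between the compounds. The same genes without the length offset, added after the files were seen, gave 15, 36 and 23. With 1 library left out the UCI-1001 count ranged from 9 to 19, with 11 without DMSO library 1 and 9 without UCI-1001 library 2. Only uncalled values changed sign: SESN1 with UCI-1001 (0.16) and UCI-1014 (0.0065) with the length offset, SESN1 without UCI-1014 library 2 (0.0063 against DMSO and 0.083 against UCI-1001), and SESN3 with p53-WT without p53-null library 2 (0.02) or p53-WT library 1 (0.15). With single libraries left out these 3 values ranged from -0.32 to 0.0063, from -0.24 to 0.083 and from -0.15 to 0.15. The causes were not tested.

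Whether replicate numbers of the labels pair the libraries could not be decided with 2 or 3 libraries per group. Same-numbered deviations correlated at 0.19, 0.22 and 0.05 in Saos-2, where p53-null library 2 correlated better with p53-WT library 3 (0.25). In TOV-112D they correlated at 0.03, -0.02 and -0.16. With 2 libraries per group there, differently numbered libraries give the same values with opposite sign. With the replicate block the 6 genes had 2, 5, 2 and 5 calls with UCI-1001, with UCI-1014, between the compounds and with p53-WT, PRKAB1 between the compounds no longer being called (adjusted p = 0.073), and the pathway genes had 15, 42, 24 and 46. Levels recomputed from gene counts were 1.18 to 1.24 times the summed TPM, and the order of the 5 genes that had one was the same in each group. Shares of transcripts by estimated counts in place of TPM moved by -4.51 to 17.6 percentage points. DMSO held 66 to 114 counts of DDIT4 and SESN3, which limits small differences there.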
